A study of Mus musculus with 8 samples.

Results

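Mucins, the glycoproteins that form intestinal mucus, and many surface proteins carry O-linked sugar chains, and 10 genes that take part in building and capping such chains were examined in crypts of the mouse small intestine (SI) and colon (COL). The 10 genes, Galnt12, C1galt1, C1galt1c1, B3gnt6, Gcnt1, Gcnt3, B3gnt3, B4galnt2, Fut2 and St6galnac6, were matched by symbol from the Ensembl identifiers and are 10 of the 45706 genes in the count tables. They had been picked with their levels in SI and COL crypts of these same libraries in view, without a numeric threshold, so the difference between SI and COL in these 10 genes is given as a description and without a test. RNA-Seq was performed on crypts, the gland-like pockets of the epithelium, freshly isolated by EDTA chelation from 4 wild-type C57BL/6N mice, 2 female and 2 male. Each mouse gave 1 SI and 1 COL library, written here as SI1 to SI4 and COL1 to COL4, and replicates 1 and 4 came from the female mice. The labels number the donors 1, 2, 3 and 5 in the order of the replicates. The labels list no transgene and no treatment.

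O-glycosylation of mucins starts in the Golgi when a polypeptide GalNAc transferase puts N-acetylgalactosamine (GalNAc) on a serine or threonine. A galactose then gives core 1, a GlcNAc gives core 3, and a branching GlcNAc turns these into core 2 and core 4. The chains are extended and finally capped by fucose, GalNAc, sulfate or sialic acid.

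Total counts lay between 15969428 in COL2 and 32908060 in COL4, and all 10 genes passed the filter on low counts that kept 14491 genes. The mitochondrial share of counts was high in SI2, SI3, COL1 and COL2 (22.7% to 50.8%) and low in the other 4 libraries (4.83% to 7.35%). Differences are therefore also given within these sets of libraries for the genes where the sets part, as the difference of the mean log2(CPM + 0.1) of the tissues. The SI libraries of the high set were from male mice and those of the low set from female mice, while COL mixed the sexes in each set. Mitochondrial share, sex and mouse cannot be told apart in these differences. A list of 7 absorptive markers of the small intestine, among them Fabp1 and Sis, summed to 48851 to 118830 CPM (the count scaled to a fixed library total, with edgeR's TMM factors) in SI and to 13.03 to 144 CPM in COL. The 8 Paneth cell markers summed to 583 to 4116 CPM in SI and to 7.30 to 21.2 CPM in COL, and the 5 absorptive markers of the colon to 470 to 1194 CPM in SI and to 4613 to 31876 CPM in COL. The sums of these lists went with the tissue labels. Of the 5 absorptive markers of the colon, 3 were higher in COL at an adjusted p-value below 0.05 and Slc26a3 did not differ. Ceacam20 went the other way and was higher in SI (log2 change 2.26, adjusted p = 0.0129, edgeR). The 3 stem cell markers Lgr5, Ascl2 and Smoc2 summed to 2.54 CPM in SI1 and to 18.6 to 35.7 CPM in the other 7 libraries. Leukocyte markers summed to 23.6 to 56.8 CPM in SI and to 13.4 to 31.0 CPM in COL. Of the 4 leukocyte markers tested, 1 was higher in SI at an adjusted p-value below 0.05. Stromal and muscle markers summed to 3.43 to 14.02 CPM over the 8 libraries.

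The upstream sequences of 4 of the 10 genes are shown because they span the patterns described further on: St6galnac6 and Gcnt1 were higher in COL, B3gnt3 was higher in SI, and B4galnt2 was at a like level in both. The sequences are RefSeq's for GRCm38.p6, the 250 bases before an annotated start, 5′ to 3′ on the strand of the gene. RefSeq's table held 5 of the 10 genes, these 4 and C1galt1. The 20 bases of the B4galnt2 window next to the start lie in an exon of GENCODE and are left out, which leaves 230 bases. Of the 3 starts of Gcnt1, the one farthest upstream is shown. Capitals mark matches, on either strand, to TATAAA (the TATA box), TTTAT (the core of sites of CDX homeobox factors) and GGGCGG (the GC box of SP and KLF factors).
St6galnac6, chr2:32599459-32599708, plus strand: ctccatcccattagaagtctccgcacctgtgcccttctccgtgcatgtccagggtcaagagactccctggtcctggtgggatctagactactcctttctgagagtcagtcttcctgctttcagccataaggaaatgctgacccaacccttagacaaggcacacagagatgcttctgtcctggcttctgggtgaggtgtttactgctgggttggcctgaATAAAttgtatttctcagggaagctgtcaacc
Gcnt1, chr19:17372845-17373094, minus strand: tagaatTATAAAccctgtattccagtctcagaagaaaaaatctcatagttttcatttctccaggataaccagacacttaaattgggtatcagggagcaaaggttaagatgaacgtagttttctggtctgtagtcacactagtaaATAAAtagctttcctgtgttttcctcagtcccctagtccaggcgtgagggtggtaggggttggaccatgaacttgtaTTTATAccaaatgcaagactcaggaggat
B3gnt3, chr8:71701801-71702050, minus strand: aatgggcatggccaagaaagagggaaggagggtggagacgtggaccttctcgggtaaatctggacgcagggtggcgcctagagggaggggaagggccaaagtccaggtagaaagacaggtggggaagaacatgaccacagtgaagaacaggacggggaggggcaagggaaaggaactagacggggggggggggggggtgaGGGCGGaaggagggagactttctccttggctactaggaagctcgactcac
B4galnt2, chr11:95914892-95915121, minus strand: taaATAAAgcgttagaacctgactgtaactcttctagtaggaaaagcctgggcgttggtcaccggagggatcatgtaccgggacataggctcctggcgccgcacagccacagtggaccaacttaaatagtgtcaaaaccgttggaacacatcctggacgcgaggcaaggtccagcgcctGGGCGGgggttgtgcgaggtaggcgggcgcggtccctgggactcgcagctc

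St6galnac6 had 1 match to the CDX core, on the opposite strand and 32 bases before the start. At the start shown, Gcnt1 had 2 TATA boxes, 244 and 29 bases before the start, and 3 matches to the CDX core. The reverse complement of the CDX core is part of the TATA box, so 2 of these 3 matches are the same letters as the TATA boxes. The windows of the other starts of Gcnt1 had 0 TATA boxes, and 1 and 0 matches to the CDX core. B3gnt3 had 1 GC box 50 bases before the start, and B4galnt2 had 1 match to the CDX core and 1 GC box. C1galt1, whose window lies in an annotated exon and is not shown, had 5 GC boxes. Another motif, AGATAA of GATA factors, was searched in the same way and was in none of the windows of the 5 genes. These motifs are common: of 32851 windows of the same length, 12.4% hold the TATA box, 37.3% the CDX core, 32.7% the GC box and 9.99% the GATA motif. A match describes letters only.

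On TMM-scaled CPM, every COL library lay above every SI library in 7 of the 10 genes. These were St6galnac6, Fut2, C1galt1, Gcnt1, Gcnt3, B3gnt6 and Galnt12. Of all genes tested, 15.7% showed this order. B3gnt3 showed the reverse order, as did 17.8% of all genes tested. The libraries of the tissues overlapped in B4galnt2 and C1galt1c1. Since the genes were chosen on this comparison, nothing is read from these counts.

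**Figure D1:**
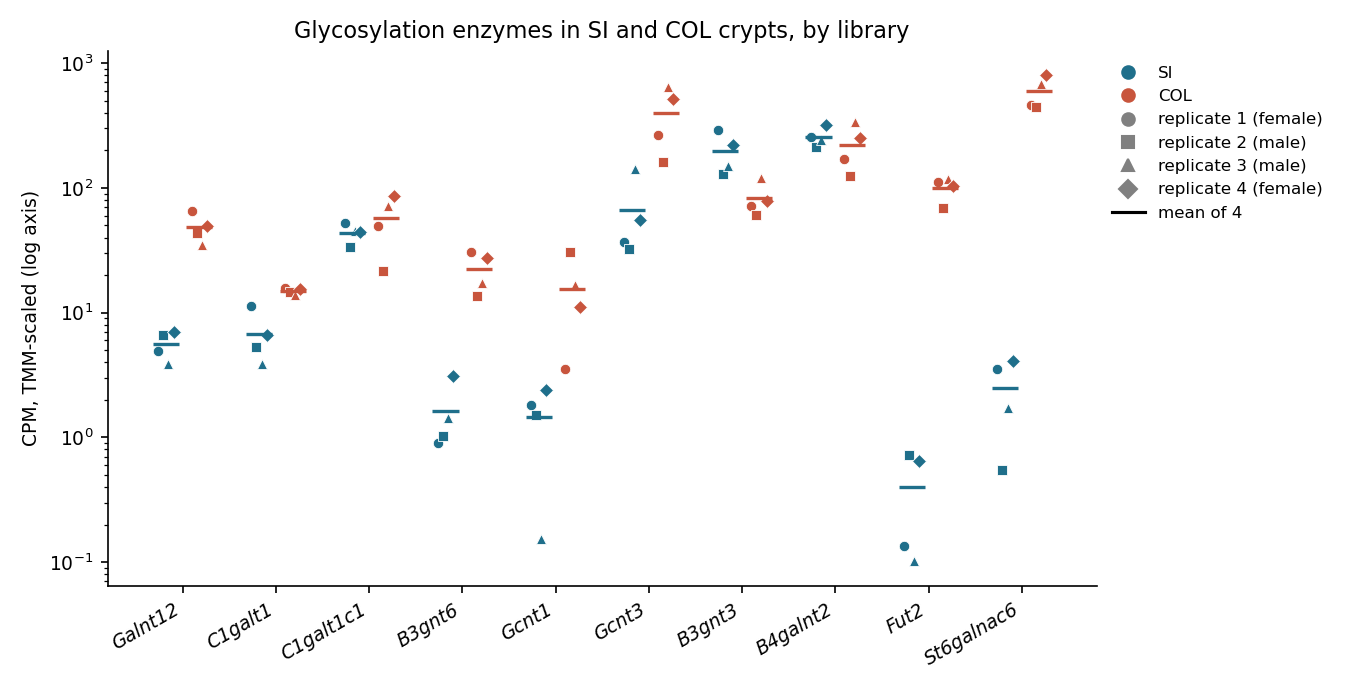
CPM (TMM-scaled, log axis) of the 10 genes in each of the 4 SI (blue) and 4 COL (red) libraries, with marker shapes for the replicate and sex and lines for the mean of 4. St6galnac6 and Fut2 lie more than 2 log10 units higher in COL, B3gnt3 lies higher in SI, and B4galnt2 and C1galt1c1 overlap.

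Galnt12 encodes a polypeptide GalNAc transferase, one of the enzymes that start the chain. It lies on chromosome 4 from 47091909 to 47123070 (GRCm38, plus strand). Its level was 4.94, 6.65, 3.85 and 7.05 CPM in SI1 to SI4 and 65.0, 43.3, 34.8 and 49.6 CPM in COL1 to COL4. The lowest COL library thus had several times the CPM of the highest SI library. The log2 difference, SI over COL, was -3.10 (standard error 0.31), which is 8.56-fold higher in COL. It was -3.36 in the high-mitochondrial libraries and -2.79 in the low-mitochondrial ones.

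Galnt12 was not the most abundant enzyme of this step in either tissue. On a scale of CPM per kilobase of exon, which allows levels of different genes to be compared, it made up 1.94% ± 0.61 of the sum over 19 GalNAc transferases in SI and 14.5% ± 2.59 in COL (SD, n = 4). Galnt6 was the most abundant in both tissues, with 59.1% ± 7.94 of the sum in SI and 28.5% ± 2.35 in COL (SD, n = 4). The sum itself was 132 ± 37.4 in SI and 144 ± 20.8 in COL, on the same scale. The make-up of the group therefore differed more between the tissues than its sum did.

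C1galt1 (chromosome 6, 7844842 to 7875687, plus strand) encodes the core 1 synthase, which adds galactose to GalNAc. It stood at 11.3, 5.26, 3.90 and 6.64 CPM in SI1 to SI4 and at 15.7, 14.6, 13.8 and 15.6 CPM in COL1 to COL4. The COL libraries were close to each other, with a mean of 14.9 ± 0.89 CPM, while SI1 stood above the other 3 SI libraries, which gave a mean of 6.77 ± 3.21 CPM (SD, n = 4). Its log2 difference came to -1.14 (standard error 0.34), and it was -1.72 in the high-mitochondrial libraries and -0.75 in the low-mitochondrial ones.

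C1galt1c1 (chromosome X, 38630785 to 38635087, minus strand) encodes Cosmc, the chaperone without which core 1 synthase does not fold. Its level was 52.0, 33.9, 44.9 and 44.3 CPM in SI1 to SI4 and 49.1, 21.4, 71.7 and 86.3 CPM in COL1 to COL4. COL2, the library with the highest mitochondrial share, was the lowest of all 8, and the tissues overlapped. C1galt1c1 was higher in SI in mice of replicates 1 and 2 and higher in COL in those of replicates 3 and 4. The log2 difference of -0.39 was as large as its standard error of 0.38, and it was 0.27 in the high-mitochondrial libraries and -0.71 in the low-mitochondrial ones.

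B3gnt6 (chromosome 7, 98192417 to 98199481, minus strand) encodes the core 3 synthase, which competes with core 1 synthase for the first GalNAc. It had 0.91, 1.03, 1.42 and 3.11 CPM in SI1 to SI4 (17 to 68 counts) and 30.5, 13.5, 17.3 and 27.5 CPM in COL1 to COL4. The highest SI library, SI4, was still well under the lowest COL library. This is a log2 difference of -3.77 (standard error 0.48), a 13.7-fold higher level in COL.

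The ratio of B3gnt6 to C1galt1 within a library, which no scaling between libraries can move, was taken on the length scale. Its log2 value was -2.28, -0.99, -0.10 and 0.27 in SI1 to SI4 and 2.32, 1.25, 1.69 and 2.18 in COL1 to COL4. Core 3 synthase transcripts therefore exceeded those of core 1 synthase in all COL libraries and in SI4 alone of the SI libraries. The mean was -0.77 ± 1.13 in SI against 1.86 ± 0.49 in COL (SD, n = 4). The ratio of C1galt1 to its chaperone was far below 0 in every library, at -4.86 ± 0.54 in SI against -3.83 ± 0.89 in COL (SD, n = 4), and overlapped between the tissues.

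**Figure D2:**
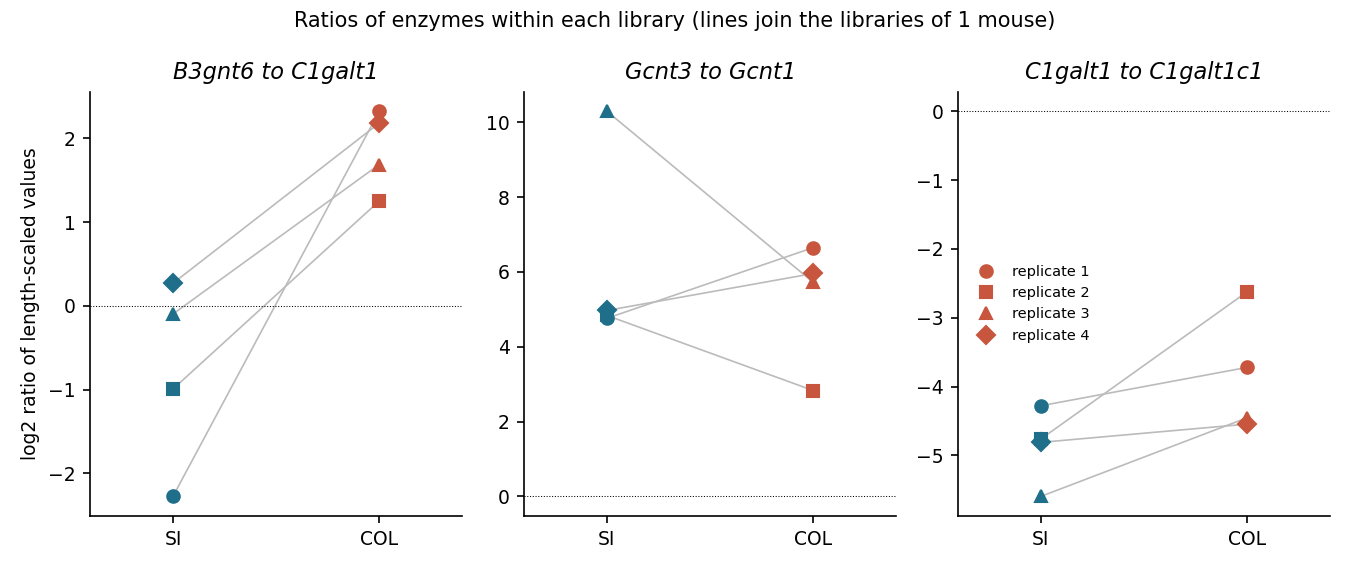
Log2 ratios, within each library, of CPM per kilobase for B3gnt6 to C1galt1, Gcnt3 to Gcnt1 and C1galt1 to C1galt1c1. Blue points are SI and red points COL libraries, and grey lines join the 2 libraries of 1 mouse. The tissues are apart in the first panel and overlap in the other two.

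Gcnt1 and Gcnt3 encode branching enzymes that add GlcNAc to the first GalNAc. The product of Gcnt1 makes core 2, and that of Gcnt3, known as the mucin-type enzyme, makes core 2 and core 4. Gcnt3 (chromosome 9, 70031496 to 70038088, minus strand) had 36.6, 32.2, 142 and 55.7 CPM in SI1 to SI4 and 266, 161, 649 and 519 CPM in COL1 to COL4. The highest SI library, SI3, came near the lowest COL library, COL2. The log2 difference was -2.58 (standard error 0.59), and it was -3.25 without SI3. It was -1.61 in the high-mitochondrial libraries, which include SI3 and COL2, and -3.68 in the low-mitochondrial ones.

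Gcnt1 (chromosome 19, 17326141 to 17372844, minus strand) was much lower, with 40, 25, 3 and 52 counts in SI1 to SI4, or 1.81, 1.51, 0.15 and 2.38 CPM. In COL1 to COL4 it had 3.55, 30.4, 16.5 and 11.2 CPM. COL1 was close to the SI libraries, and COL2 was the highest. Over all libraries the log2 difference was -3.38 (standard error 0.76), and it was -2.77 without COL2. It was -4.05 in the high-mitochondrial libraries and -2.65 in the low-mitochondrial ones.

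On the length scale, Gcnt3 took 51.4% ± 16.4 of the sum of the 5 branching enzymes in SI and 92.1% ± 8.65 in COL (SD, n = 4). Gcnt1 took 1.14% ± 0.74 in SI and 3.87% ± 4.86 in COL. In SI the remainder was mostly Gcnt4, with 25.1% ± 10.7, and the I-branching enzyme Gcnt2, with 19.6% ± 5.23. The log2 ratio of Gcnt3 to Gcnt1 was 4.76 to 4.97 in SI1, SI2 and SI4 and 10.3 in SI3, and it lay between 2.83 and 6.65 in COL. The ranges overlapped, so Gcnt3 and Gcnt1 were not shifted against each other by more than the spread between libraries.

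B3gnt3 (chromosome 8, 71690756 to 71701789, minus strand) encodes a GlcNAc transferase that extends core 1 chains. On TMM-scaled CPM, it was the only one of the 10 genes with every SI library above every COL library. Its level was 293, 128, 149 and 219 CPM in SI1 to SI4 and 71.6, 60.3, 121 and 79.1 CPM in COL1 to COL4. The gap was small, since SI2 stood just above COL3, and within the mouse of replicate 3 the log2 difference was 0.30 against 1.09 to 2.03 in the other 3 mice. The log2 difference over all libraries was 1.25 (standard error 0.35), or 2.38-fold higher in SI. It was 0.47 with scaling by library size alone, which moved the median of all genes tested from -0.09 to -0.82. The order of the libraries also rests on the TMM factors, 0.73 to 0.80 in SI and 1.01 to 1.45 in COL. Without them, B3gnt3 had 2944 of 24765888 counts in SI3 and 4527 of 28774262 in COL3, a smaller share in SI3.

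B3gnt3 made up 91.7% ± 3.49 of the length-scaled sum of 8 beta-1,3-GlcNAc transferases in SI and 26.0% ± 7.004 in COL (SD, n = 4). In COL the largest share, 59.6% ± 12.4, was that of B3gnt7, which extends chains and had 6.63% ± 3.46 in SI. B3gnt6 made up 1.03% ± 0.56 in SI and 9.66% ± 5.96 in COL. The leading enzyme of the group thus differed between the tissues.

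B4galnt2 (chromosome 11, 95865943 to 95914891, minus strand) encodes the transferase that caps sialylated chains with GalNAc to give the Sda antigen. It had 258, 214, 240.1 and 320.5 CPM in SI1 to SI4 and 171, 124, 339 and 251 CPM in COL1 to COL4. The SI libraries lay within the range of the COL libraries. The log2 difference was 0.22 (standard error 0.36), smaller than its error. It was positive in 3 of the 4 mice and -0.50 in the mouse of replicate 3, and it turned to -0.02 in the low-mitochondrial libraries. B4galnt2 made up 96.4% ± 0.81 of the length-scaled sum of the 5 capping enzymes that add GalNAc or GlcNAc in SI and 87.1% ± 4.12 in COL (SD, n = 4). Of the stretches of 50 bases in its longest transcript, 10.04% also occur in Gm11534, which overlaps it on the opposite strand, so some of its reads may have been assigned elsewhere.

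Fut2 (chromosome 7, 45648591 to 45666394, minus strand) encodes the secretor enzyme, which adds fucose in alpha-1,2 linkage to chain ends and so makes the H antigen. Only 3, 12, 2 and 14 counts fell on it in SI1 to SI4, or 0.14, 0.73, 0.10 and 0.64 CPM. In COL1 to COL4 it had 110.5, 68.8, 118 and 103 CPM. COL2 was the lowest of the COL libraries and still far above SI. Fut2 had a log2 difference of -7.97 (standard error 0.59), or 251-fold, and was in place 58 of 14491 genes when they were ordered by their difference toward COL. Of its stretches of 50 bases, 5.47% also occur in the neighbouring paralog Sec1.

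Fut2 made up 60.8% ± 4.92 of the length-scaled sum of 5 fucosyltransferases of chain ends in COL and 1.75% ± 1.30 in SI (SD, n = 4). The sum was 30.1 ± 4.59 in COL and 4.09 ± 0.92 in SI. In SI, Fut4 took the largest share, 83.1% ± 19.8, although its own level was higher in COL. SI1 stood apart with 54.1% for Fut4 and 45.0% for Fut7, which had 64 counts in that library.

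St6galnac6 (chromosome 2, 32599709 to 32620806, plus strand) encodes a sialyltransferase that puts sialic acid in alpha-2,6 linkage on GalNAc or GlcNAc residues. In the human intestine it is known for disialyl Lewis a. It had 78, 9, 34 and 89 counts in SI1 to SI4, or 3.53, 0.54, 1.72 and 4.07 CPM. In COL1 to COL4 it had 463, 444, 685 and 803 CPM. The female mice, replicates 1 and 4, whose SI libraries also had a low mitochondrial share, had the higher levels in SI. The COL libraries with a low mitochondrial share had the higher levels in COL. The log2 difference was -7.91 (standard error 0.68), or 240.4-fold, place 62 of 14491 genes toward COL. Within the sets of libraries it was -8.71 at a high and -7.57 at a low mitochondrial share.

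Within the sialyltransferases, St6galnac6 made up 52.9% ± 5.18 of the length-scaled sum of 14 genes in COL and 0.046% ± 0.027 in SI (SD, n = 4). In SI the sum was almost wholly St3gal4, with 98.4% ± 0.28. St3gal4, which puts sialic acid in alpha-2,3 linkage on galactose, had 24.3% ± 7.71 in COL. The sum was 1048 ± 182 in SI and 236 ± 68.0 in COL, so SI crypts held more sialyltransferase transcript in all, and of a different gene.

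**Figure D3:**
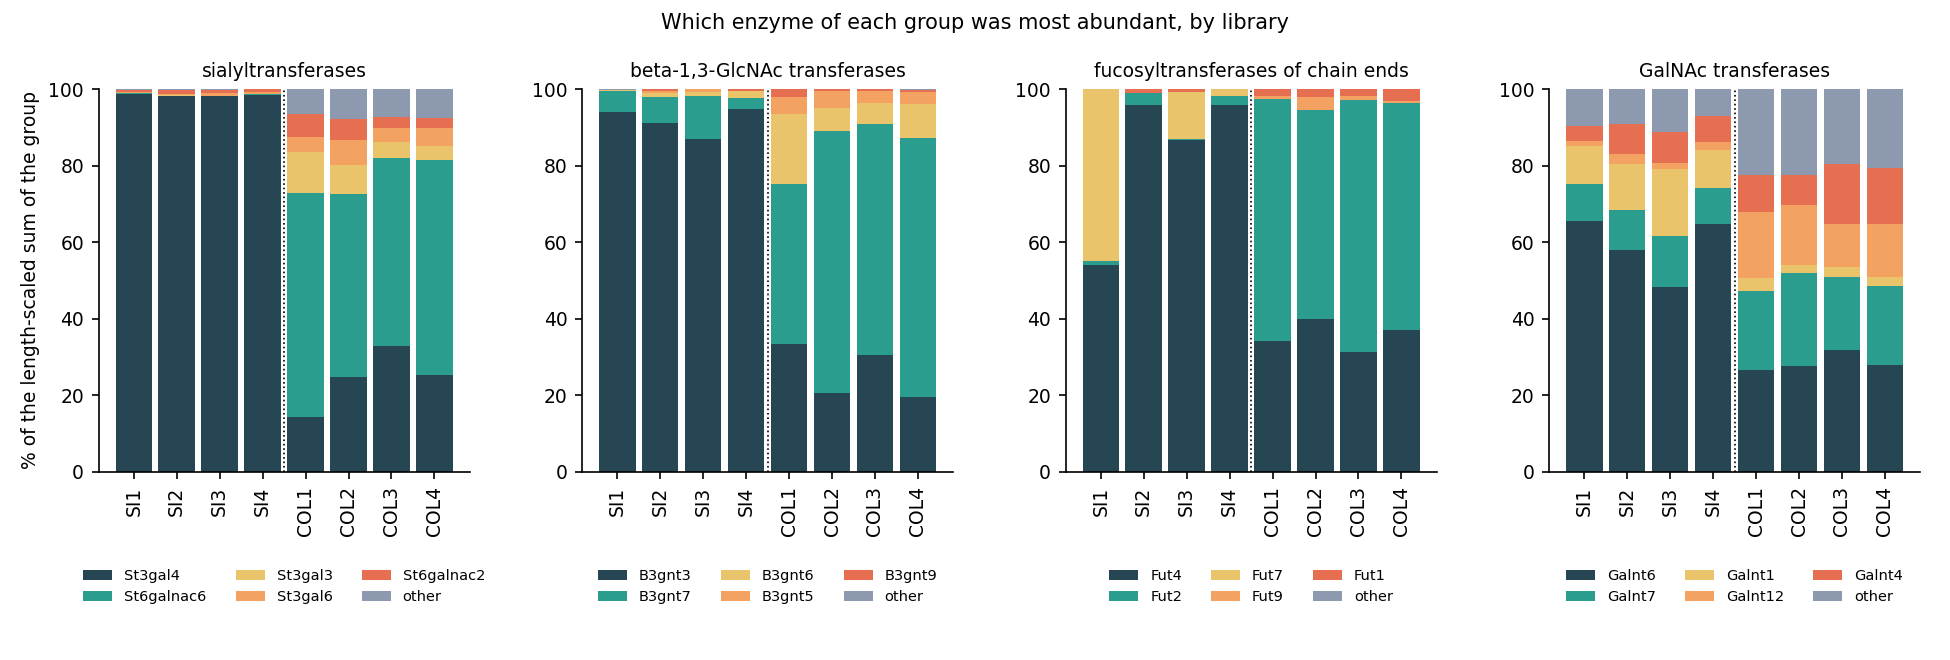
Share of each gene in the length-scaled sum (CPM per kilobase of exon) of 4 groups of enzymes, as stacked bars per library that add up to 100%, with the 5 genes of the largest shares named. The leading gene was St3gal4 in SI and St6galnac6 in COL, B3gnt3 and B3gnt7, and Fut4 and Fut2, while Galnt6 led the GalNAc transferases in both tissues.

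Markers of goblet and deep crypt secretory cells moved with this contrast. Of the enteroendocrine, tuft, proliferation and stem cell markers, 0 were higher in SI and 0 in COL at an adjusted p-value below 0.05. Of 9 goblet cell markers, 5 were higher in COL at an adjusted p-value below 0.05 and 0 were higher in SI, and their sum was 2880 to 10959 CPM in SI against 12822 to 24293 CPM in COL. Muc2, the main secreted mucin of the intestine, had 625 ± 295 CPM in SI against 10674 ± 3959 CPM in COL (SD, n = 4). Both markers of the deep crypt secretory cells of the colon, Reg4 and Kit, were higher in COL, with sums of 64.1 to 87.0 CPM in SI against 134 to 366 CPM in COL. No marker of these lists was at 0 in all libraries of a tissue. The 5 called goblet markers were 5.79-fold (Atoh1) to 17.1-fold (Muc2) higher in COL, Kit 8.25-fold and Reg4 3.00-fold. Fcgbp, Tff3, Zg16 and Clca1 did not pass the test, at log2 changes of 0.66, 0.86, 0.88 and -0.79. The part of goblet or secretory cells in the differences was not tested, and in bulk crypts fewer cells of a type and less RNA per cell cannot be told apart.

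The other genes of the pathway were taken from a list of 103 genes in 11 role groups that was drawn up by role and holds the 10. The list was drawn up with earlier results of these data known, so the shares below describe it and are not independent support. Of the other 93 genes, 67 passed the filter. In edgeR's quasi-likelihood test, with p-values adjusted over all genes after Benjamini and Hochberg, 34 of the 67 were higher in COL (50.7%), 10 were higher in SI (14.9%) and 23 were not past the threshold of 0.05. Among all genes tested, 12.9% were higher in COL and 15.5% were higher in SI. The median log2 difference was -0.92 over the 67 genes and -0.09 over all genes tested. Within a tissue the replicates were separate mice, so the spread in these tests holds that between animals and that between libraries. Each mouse gave a library to both tissues, and this test had no term for the mouse. With the mouse as a replicate block, 43 of the pathway genes were past the threshold, 10 toward SI and 33 toward COL.

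**Figure D4:**
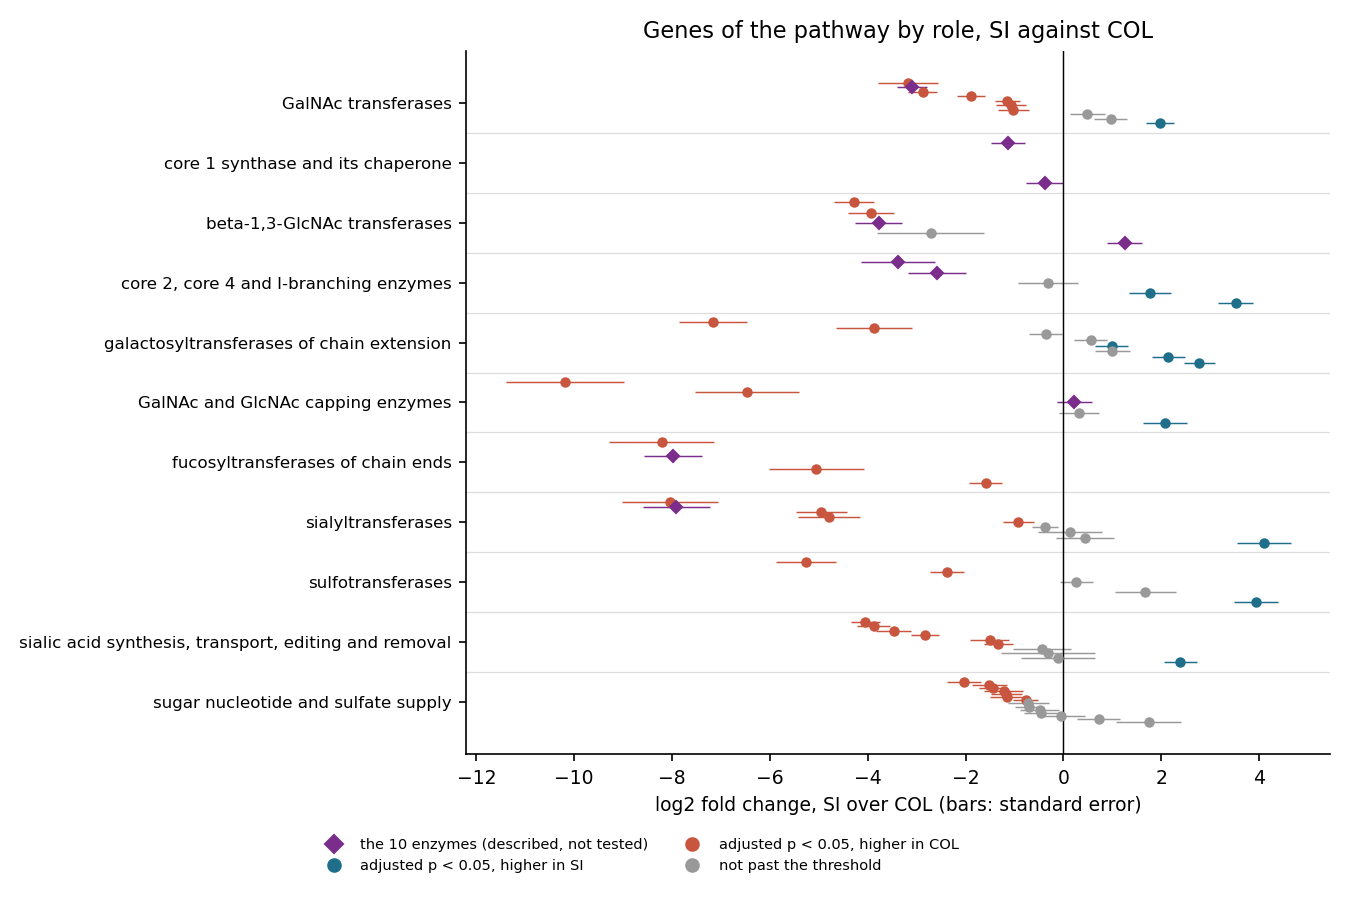
Log2 change (SI over COL) with its standard error for each tested gene of the pathway list, by role group. Purple diamonds are the 10 genes, described without a test, blue and red points are other genes past an adjusted p of 0.05, and grey points are not past it. Points past the threshold lie on the COL side for 34 genes and on the SI side for 10.

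Among the other GalNAc transferases, 6 of 9 were higher in COL and 1, Galnt1, was higher in SI. Galnt5 and Galnt3 had the largest differences toward COL that met the minimum of 5 CPM, with log2 changes of -2.87 (standard error 0.30, adjusted p = 4.89e-05, edgeR) and -1.89 (standard error 0.29, adjusted p = 0.000602, edgeR). Galnt1 had a log2 change of 1.98 (standard error 0.29, adjusted p = 0.000431, edgeR). Galnt6, the leading gene of the group, had 309 ± 122 CPM in SI against 159 ± 20.4 CPM in COL (SD, n = 4) and was not past the threshold (adjusted p = 0.0568, edgeR).

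Around the branching and extension enzymes, the genes went in both directions. Gcnt4, a core 2 enzyme, and Gcnt2 were higher in SI, with log2 changes of 3.52 and 1.77 (adjusted p = 4.72e-05 and 0.0088, edgeR), the opposite side from the values of Gcnt1 and Gcnt3. B3gnt5, which starts lacto-series glycolipids, and B3gnt7 were higher in COL, with log2 changes of -4.28 and -3.93 (adjusted p = 3.08e-05 and 0.000122, edgeR). Of 8 galactosyltransferases tested, 2 were higher in COL and 3 in SI. B3galt5, which makes type 1 chains, had 1.81 ± 1.80 CPM in SI against 256 ± 40.8 CPM in COL (SD, n = 4), a log2 change of -7.16 (adjusted p = 3.29e-05, edgeR), and of -8.05 without SI2. It took 47.5% ± 3.65 of the length-scaled sum of its group in COL and 0.34% ± 0.41 in SI, where B4galt1 led with 28.8% ± 9.43. B3galt2 was also higher in COL (-3.87, adjusted p = 0.00318, edgeR, and -5.04 without SI2), and B4galt6 and B4galt5 were higher in SI (2.78 and 2.14, adjusted p = 8.06e-05 and 0.000677, edgeR). Some reads may be shared, since 10.8% of the stretches of B3gnt7, 9.65% of Gcnt4, 7.95% of Gcnt2 and 6.82% of B3galt2 also occur in another gene.

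Among the capping enzymes, Abo, of the A and B blood group antigens, and A4gnt, which caps gastric-type mucin chains with alpha-1,4-GlcNAc, were higher in COL. Abo had 10.4 to 23.3 CPM in COL, while in SI its 12 counts were all in SI2. A4gnt had 29 to 1610 counts in the COL libraries, fewest in COL2, and 1 count in all SI libraries together. B4galnt4 was higher in SI, with a log2 change of 2.07 (adjusted p = 0.00532, edgeR). All 3 fucosyltransferases tested beside Fut2 were higher in COL. Fut4, of the Lewis x type, had a log2 change of -1.59 (standard error 0.33, adjusted p = 0.00426, edgeR), and Fut9 had 99 to 179 counts in the COL libraries and 1 count in SI.

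Of the 8 sialyltransferases tested beside St6galnac6, 4 were higher in COL and 1, St3gal4, was higher in SI. St3gal4 had 3015 ± 531 CPM in SI against 177 ± 92.7 CPM in COL (SD, n = 4), a log2 change of 4.09 (standard error 0.55, adjusted p = 0.000238, edgeR). St6gal1, which puts sialic acid in alpha-2,6 linkage on galactose, had 35.3 to 72.6 CPM in COL, and its 16 counts in SI were all in SI3. St3gal3 had a log2 change of -4.95 (standard error 0.51, adjusted p = 4.79e-05, edgeR). Of the stretches of St3gal4 and St6gal1, 4.74% and 3.41% also occur in a gene on the opposite strand.

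Of 10 genes of sialic acid synthesis, transport, editing and removal, 6 were higher in COL and 1, Siae, was higher in SI. Gne, the enzyme that starts sialic acid synthesis, had 32.9 ± 2.86 CPM in SI against 483 ± 134 CPM in COL (SD, n = 4), a log2 change of -3.88 (standard error 0.34, adjusted p = 1.91e-05, edgeR). Casd1, which O-acetylates sialic acid, was also higher in COL (-4.05, adjusted p = 8.77e-06, edgeR), and Siae, which removes these acetyl groups, was higher in SI (2.39, adjusted p = 0.000395, edgeR). Of the stretches of Siae, 14.3% also occur in Tbrg1 on the opposite strand. Slc35a1, the carrier of CMP-sialic acid into the Golgi, made up the largest length-scaled share of the group in COL, 29.7% ± 5.53, and Neu1, a lysosomal sialidase, the largest in SI, 26.1% ± 5.74 (SD, n = 4). Gne, Casd1 and the value of St6galnac6 thus lay on the COL side and St3gal4 and Siae on the SI side.

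Of 5 sulfotransferases, Chst4 and Gal3st2c were higher in COL and Gal3st2 was higher in SI, with log2 changes of -2.38, -5.26 and 3.93 (adjusted p = 0.000402, 9.57e-05 and 8.55e-05, edgeR). Gal3st2 is uncertain, because 78.5% of its stretches also occur in its paralog Gal3st2b, as do 10.96% of those of Gal3st2c. It took 71.3% ± 5.36 of the length-scaled sum of its group in SI, and Chst4 took 71.7% ± 5.95 in COL (SD, n = 4). Of 14 genes for the supply of sugar nucleotides and sulfate, 7 were higher in COL and 0 in SI. Gmds, of GDP-fucose synthesis, had a log2 change of -1.51 (adjusted p = 0.00917, edgeR). Gnpnat1, of UDP-GlcNAc synthesis, had -2.03 (adjusted p = 0.00126, edgeR), but 88.5% of its stretches also occur in Styx on the opposite strand. Papss2, of sulfate activation, had the largest length-scaled share in SI, 35.2% ± 23.8 (SD, n = 4).

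The sexes were compared within each tissue, a contrast that played no part in the choice of the 10 genes. The same test of edgeR was run in a fit with 4 groups of tissue and sex. It called 0 of the 10 genes between female and male mice within SI and 0 of 10 within COL. With 2 mice per sex few changes could be called, so this does not show that the levels were equal. Over all genes, 0.0276% were called in SI and 0.0276% in COL, which is 4 genes in either tissue. At an unadjusted p below 0.05 there were 1 of the 10 genes in SI, St6galnac6, and 0 in COL, against 9.58% of all genes tested in SI (1388) and 1.88% in COL (273). Its log2 difference, female over male, was 1.73 in SI (standard error 0.65, adjusted p = 0.473, edgeR) and 0.17 in COL (standard error 0.59, adjusted p = 1.00, edgeR). DESeq2 also called 0 of the 10 genes in either tissue. Both male SI libraries had a high and both female SI libraries a low mitochondrial share, so sex and this share cannot be told apart in SI.

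The test of whether the sex difference itself differed between the tissues called 0 of the 10 genes and 0% of all genes tested, with 1 of the 10, Gcnt1, at an unadjusted p below 0.05, as were 5.25% of all genes tested (761). The log2 difference of Gcnt1, female over male, was 1.36 in SI and -1.67 in COL, an interaction of 3.02 (standard error 1.21, adjusted p = 0.909, edgeR). DESeq2 called 0 of the 10 genes here too. With 2 mice per sex the precision was low, since the standard errors of the sex differences of the 10 genes on the log2 scale were 0.42 to 0.90 in SI and 0.41 to 0.81 in COL.

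The spread between mice within a tissue differed from gene to gene. Relative to the mean log2 CPM of its tissue, Gcnt1 ranged from -2.33 in SI3 to 1.11 in SI4 and from -1.73 in COL1 to 1.35 in COL2, the widest range of the 10 genes in either tissue. C1galt1 stayed within -0.11 and 0.07 in COL but ran from -0.67 to 0.84 in SI. St6galnac6 ran from -1.71 in SI2, where it had 9 counts, to 1.04 in SI4, and from -0.39 to 0.47 in COL. In COL2, with the highest mitochondrial share, 9 of the 10 genes lay below their COL mean, Gcnt1 being the exception. The part of the mitochondrial share in this was not tested.

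Over the 8 libraries, the log2 CPM of St6galnac6 was most like that of Parm1, Cpd and Gfpt1, with Pearson's r of 0.997, 0.997 and 0.995 among 3647 genes with a mean log2 CPM of at least 5. Gfpt1 encodes the enzyme that opens the hexosamine pathway, the source of UDP-GlcNAc. B3gnt3 was most like Tsg101, Gak and Snap23, with r of 0.991, 0.987 and 0.986. The 8 points fall into 2 tissues and share libraries, so these values only describe likeness.

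**Figure D5:**
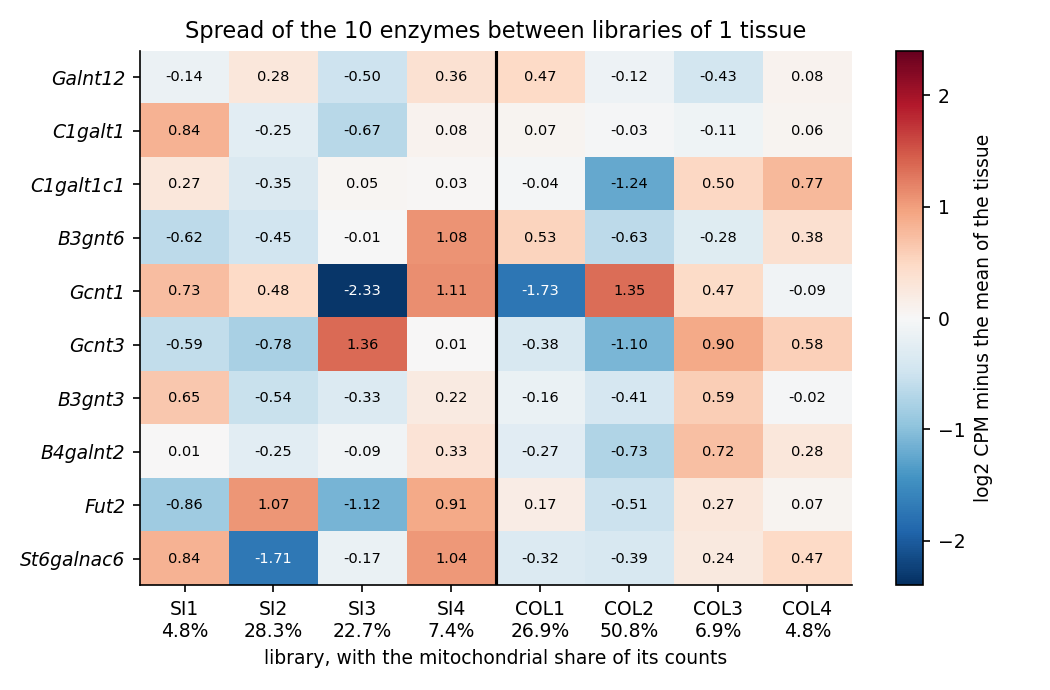
Heatmap of log2 CPM minus the mean of the tissue for the 10 genes (rows) in the 8 libraries (columns, with the mitochondrial share of counts). Red is above and blue below the mean, and COL2 lies below it in 9 of 10 genes while Gcnt1 reaches 1.35 there and -2.33 in SI3.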

How the data were processed

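Total RNA of freshly isolated crypts was sequenced by the authors. Paired-end reads went through Trimmomatic 0.36 and were mapped to mm10 with STAR 2.5.2b, which also gave the counts. The authors deposited raw counts, which are whole numbers for each Ensembl gene and were not normalized. The crypt protocol, given for organoid cultures, scrapes villi off SI and exposes colon to EDTA for longer and at a higher concentration, so preparation and tissue cannot be told apart. The submitters' processing notes also list mm9. Neither the release of the annotation nor whether counting used the strand is given in the sources used here. Samples were grouped by tissue, donor mouse and sex from the labels. Symbols, exons and coordinates came from GENCODE vM21 (GRCm38), in which 563 of the 45706 genes had no match.

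Fits were run on the deposited counts in R 4.3.3. SI was compared with COL by the quasi-likelihood test of edgeR 4.0.16 with TMM normalization on the 14491 genes kept by filterByExpr (about 10 counts in at least 4 libraries and 15 in all), with Benjamini-Hochberg adjustment. The sexes were compared in a fit with 4 groups of tissue and sex. CPM per kilobase used the joined exon length. The 10 genes and all lists were chosen with earlier results of these data known. Beside the 10 genes, the text names, per role group, at most 2 genes in each direction past the threshold with the same direction in all 4 mice and at least 5 CPM in one tissue, the gene with the largest length-scaled mean in each tissue, the most alike genes and list markers. Fut7 was named after its values were seen. One gene that this rule would name is not reported here. Shared reads were checked as the share of stretches of 50 bases of the longest transcript that occur in another gene. Between replicates of a tissue the chi-square per gene was 86.5 to 1165, so no library was a repeat of another.

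The same-numbered SI and COL libraries came from the same mouse, so the numbers pair them. Deviations from the tissue means correlated at -0.24, 0.39, -0.08 and 0.33 across genes within replicates 1 to 4 and at -0.03 on average between mice. The fit with the mouse as a replicate block was an alternative, beside limma-voom (limma 3.58.1), DESeq2 1.42.0, other scalings and filters, leaving out each library, and libraries of high or low mitochondrial share (over or under 20%) alone. The fits were tested on simulated counts. There the comparison of the tissues recovered only part of the changed genes. The comparison of the sexes within SI and the interaction recovered almost none. Depth was high for most genes named, and counts are given for some but not all of those where it was not. Gal3st2c, B3galt2, B3gnt5 and St3gal3 had means of only 0.26, 0.55, 1.04 and 1.24 CPM in SI, and B4galnt4 of 2.08 CPM in COL.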

Additional observations from a re-analysis of the deposited data

Results flagged for a closer look

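In 80 groups of 4 libraries of a tissue, 1 library stood far from the other 3 in 7 cases, where chance gives about 1 in 20 for values that do not pile up at 0. In the SI libraries, 4 genes were at 0 CPM except in 1 library, so this rate does not apply to them. A4gnt had 0.0507 CPM and St6gal1 0.811 CPM in SI3, and Fut9 had 0.0604 CPM and Abo 0.725 CPM in SI2. For A4gnt and Fut9 this is 1 count each.

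Fut4 was 6.02 CPM in SI1 and 16.8 to 17.8 CPM in the other SI libraries. SI1 also had the lowest summed stem cell markers, 2.54 CPM, and the highest summed goblet markers of SI, 10959 CPM, and the part of these in the level of Fut4 was not tested. B3galt2 was 14.6 CPM in COL4 and 5.48 to 6.09 CPM in the other COL libraries.

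The log2 ratio of Gcnt3 to Gcnt1 was 10.3 in SI3 and 4.76 to 4.97 in the other SI libraries. In SI3, Gcnt1 had 3 counts, so its ratio rests on few reads, and Gcnt3 was 142 CPM, the highest SI value.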

How the results depend on the processing

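Each result was computed again under up to 18 alternatives. The number of pathway genes past the threshold, 44, ranged from 33 to 50, 9 to 13 of them toward SI and 23 to 41 toward COL. With the replicate block it was 43, 10 of them toward SI and 33 toward COL, and leaving out 1 library at a time gave 37 to 43. Of the 10 genes, 8 kept the sign of their log2 difference in every alternative that gave a value, while B4galnt2 went from 0.22 to -0.56 with scaling by library size alone and to -0.035 among libraries of low mitochondrial share, and C1galt1c1 went from -0.39 to 0.077 among those of high share. Scaling by library size alone gave 50 pathway genes, 9 toward SI and 41 toward COL, where 7.69% of all genes tested were called toward SI (1115) and 33% toward COL (4788). It moved the median log2 difference of all genes from -0.09 to -0.82 and that of B3gnt3 from 1.25 to 0.47. Gcnt3 was -1.35 among libraries of high and -3.67 among those of low share. St6galnac6, Fut2 and Gcnt1 gave no value with at least 10 counts asked of every library. Some calls were lost among libraries of high share (B3galt2 at -2.86, adjusted p = 0.078, Gcnt2 at 1.88, adjusted p = 0.0956, and Gmds at -0.97, adjusted p = 0.203, edgeR) or of low share (B4galnt4 at a log2 change of 1.27, adjusted p = 0.124, edgeR), where fewer samples were used. The counts of all genes that differed between the sexes, 4 within SI and 4 within COL, were less stable. Within SI they were 124 with DESeq2, 222 with no filter and 0 with at least 10 counts in every library, and 1 to 5 with a library left out. Within COL they were 31 with no filter, 0 with at least 10 counts in every library and 1 to 5 with a library left out. The interaction gave 11 genes with DESeq2 and 78 with no filter, against 0. None of the 10 genes was called in any of these sex comparisons. The cause was not tested. Without SI3 (St6gal1 and A4gnt) or SI2 (Abo and Fut9), these genes are at 0 in the remaining SI libraries, so no fold is given for them.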
